A study of Mus musculus with 10 samples.

Results

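A set of 10 genes of de novo lipogenesis, the building of fatty acids from carbohydrate carbon, were followed in libraries labelled as hepatocytes, EP300 KO or EP300 WT, from cMet-injected mouse livers under DDC injury. The genes were taken from a list by name: the regulators Srebf1 and Thrsp, the 7 core enzymes Acly, Acaca, Acacb, Fasn, Scd1, Elovl6 and Me1, and the lipid droplet gene Pnpla3. All 10 were found among the 55385 genes of the deposited table and all 10 entered the test, the lowest count of any of them in a library being 11. The KO-labelled group (EP300 KO, 2 libraries) has the genotype EP300-/-, made by tail-vein AAV-TBG-Cre in mice with floxed EP300 alleles. The control group (EP300 WT, 2 libraries) carries the same floxed alleles (EP300f/f) and was given AAV-TBG-GFP. EP300 is a histone acetyltransferase and transcriptional coactivator, and the TBG promoter limits Cre or GFP to hepatocytes. Both groups shared the C57BL/6J 129SV background, a DDC diet, which injures hepatocytes and bile ducts, and hydrodynamic injection of the pT3-cMet plasmid, with 5 months of treatment. Age and sex are not given in the sources used here, the titles begin with HCC, and the labels mention pooling without tying a library to an animal. Nothing says that the libraries come from separate animals, so p-values reflect library-to-library spread alone, and that spread may be technical.

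In de novo lipogenesis, ATP citrate lyase (Acly) turns cytosolic citrate into acetyl-CoA, the acetyl-CoA carboxylases (Acaca, Acacb) make malonyl-CoA from it, and fatty acid synthase (Fasn) joins these units into palmitate. Malic enzyme (Me1) supplies part of the NADPH, the elongase Elovl6 lengthens palmitate to stearate, and the desaturase Scd1 makes oleate and palmitoleate. In liver the pathway is driven by insulin through SREBP-1, the product of Srebf1, and by glucose through ChREBP, the product of Mlxipl. Thrsp (Spot 14) is a small protein induced by carbohydrate and thyroid hormone that is needed for full lipogenesis in some tissues. Pnpla3 encodes a lipid droplet protein that SREBP-1 is known to induce.

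The promoters of 3 of these genes, chosen by their results, are shown: Thrsp had the largest rise, Fasn did not pass the test, and Pnpla3 had the largest fall. Whether the promoter sequences bear on these changes was not tested. Each is the 250 bases before the RefSeq start (GRCm38.p6), 5′ to 3′ on the gene's strand, with capitals marking matches on either strand to the CCAAT box (CCAAT), the GC box (GGGCGG), an E box (CACGTG), a sterol regulatory element (TCACNCCAC), a nuclear receptor half-site (AGGTCA) and the TATA box (TATAAA).
Thrsp, chr7:97417551-97417800, minus strand: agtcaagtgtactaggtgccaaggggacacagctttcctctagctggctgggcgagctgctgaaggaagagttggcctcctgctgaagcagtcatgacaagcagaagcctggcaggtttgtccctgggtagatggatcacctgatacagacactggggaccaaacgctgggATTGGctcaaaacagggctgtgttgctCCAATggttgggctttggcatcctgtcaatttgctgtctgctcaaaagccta
Fasn, chr11:120824548-120824797, minus strand: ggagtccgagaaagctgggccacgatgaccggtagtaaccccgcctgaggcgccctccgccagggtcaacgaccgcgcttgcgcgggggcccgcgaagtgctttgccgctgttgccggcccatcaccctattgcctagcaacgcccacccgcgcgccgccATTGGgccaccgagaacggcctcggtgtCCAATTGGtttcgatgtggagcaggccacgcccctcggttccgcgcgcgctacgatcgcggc
Pnpla3, chr15:84167566-84167815, plus strand: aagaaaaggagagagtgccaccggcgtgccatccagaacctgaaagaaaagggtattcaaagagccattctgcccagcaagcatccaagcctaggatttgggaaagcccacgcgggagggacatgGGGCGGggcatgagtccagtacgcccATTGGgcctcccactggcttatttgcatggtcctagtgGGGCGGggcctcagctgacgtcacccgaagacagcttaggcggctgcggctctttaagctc
Thrsp and Fasn each held CCAAT on both strands, with the reverse match (ATTGG) beginning 79 and the forward match 52 bases before the start in Thrsp, and the first ones beginning 90 and 62 bases before it in Fasn, where the forward match overlaps a further ATTGG. Pnpla3 held a reverse CCAAT beginning 99 bases before the start and 2 GGGCGG matches. RefSeq windows were found for 9 of the 10 genes. CCAAT on either strand was present for 6 of these 9, against 33.8% of all 32851 promoter windows of this length, and GGGCGG for 4, against 32.7%. Some genes have several windows, which raises their chance of a match. The only windows of Acaca and Acacb lie inside the annotated genes, as do some windows of Srebf1 and Me1. The stretches before the annotated gene starts of Acaca and Acacb were therefore not searched. AGGTCA was found for 2 genes (14% of all windows) and TATAAA for 1 (12.4%). Neither CACGTG (6.02% of all windows) nor TCACNCCAC (1.05%) was found in the windows of any of the 9, which says only that these letters are not in these stretches.

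Total counts were 17709799 and 17811489 in EP300 KO and 18575701 and 18831671 in EP300 WT. The gene-level count of Ep300 did not fall: it stood at 73.6 and 72.2 CPM (counts put on a shared library size) in the KO-labelled libraries and at 62.3 and 57.8 CPM in the WT-labelled libraries. Its log2 fold change was 0.28 (SE 0.07, edgeR adjusted p = 0.00498), and the call ended without EP300 WT replicate 2 (adjusted p = 0.128; 0.000241 to 1 over all 14 alternatives). A gene-level count cannot show the loss of an exon, and all comparisons that follow rest on the labels given to the libraries. Xist, the noncoding RNA of the inactive X chromosome, had 2310 and 1411 counts in the KO-labelled libraries and 3 and 2 in the WT-labelled libraries. All 4 Y-linked genes examined were present in every library, Ddx3y for example at 55.1 and 46.7 CPM in KO and 56.8 and 55.9 CPM in WT. Of a list of 13 sex-linked and male-biased liver genes, 9 were higher in KO and 0 lower, namely Xist and all 8 male-biased genes. Of all 14200 genes tested, 16.7% were called higher and 17.5% lower. The oxysterol hydroxylase gene Cyp7b1, for example, had 125 and 108 CPM in KO and 13.7 and 11.7 CPM in WT. The part of these sex-related differences in the results was not tested.

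Of the 10 genes, 5 were higher in EP300 KO (Thrsp, Me1, Acacb, Elovl6 and Acly), 2 were lower (Pnpla3 and Scd1) and 3 did not pass the test (Srebf1, Acaca and Fasn), by edgeR's quasi-likelihood test at an adjusted p below 0.05. Among all 14200 genes tested, 34.2% were called, 16.7% higher and 17.5% lower. Among the 8095 with a mean of at least 10 CPM, a level that 9 of the 10 exceed, 42.6% were called, 23.0% were called higher and 19.6% lower. Against a fold of 1.5, 2 of the 10 genes were called higher and 1 lower, beside 6.98% of all genes called in either direction. The median log2 fold change of the 10 genes was 0.27, and that of all genes tested was -0.01. The median of the absolute log2 fold changes was 0.48 for the 10 genes and 0.25 for all genes tested. Nothing particular to lipogenesis is read from these medians, since they compare a chosen list with all genes.

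**Figure D1:**
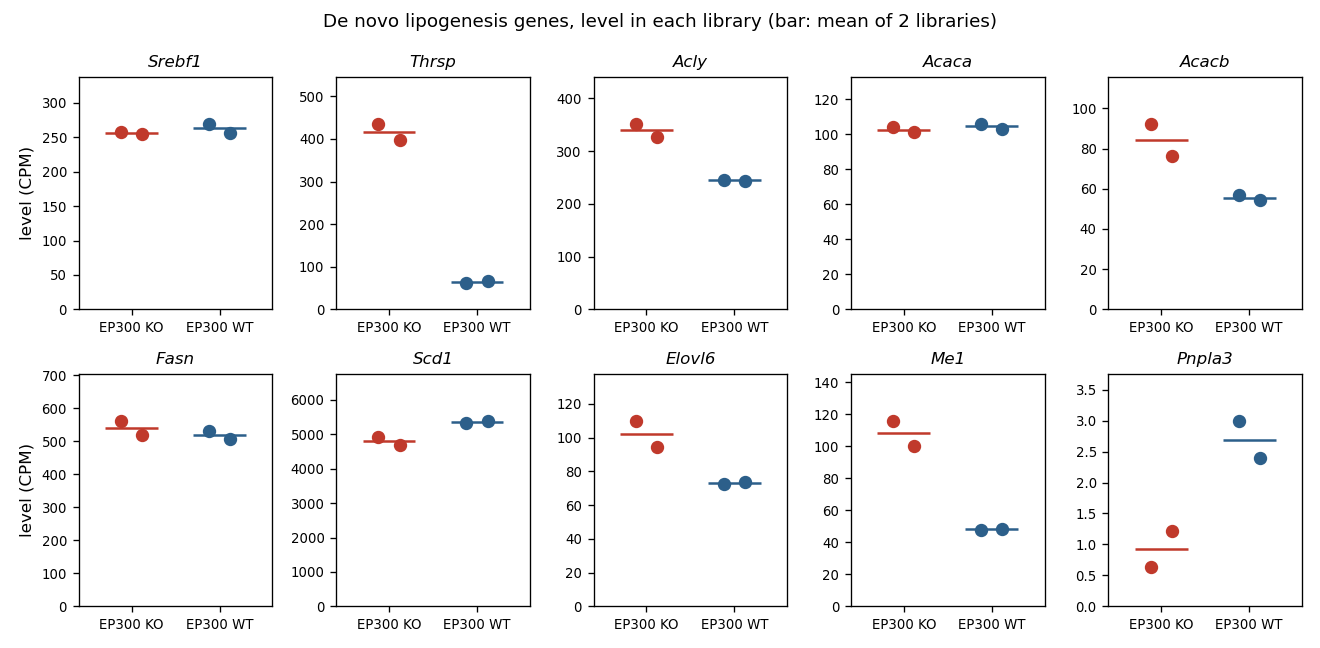
Level in CPM of each of the 10 genes in the 2 EP300 KO libraries (red, left) and the 2 EP300 WT libraries (blue, right), with a bar at the mean of each pair; every axis starts at 0. Thrsp stands at 436 and 397 CPM in KO and 62.9 and 66.2 CPM in WT, while the points of Srebf1, Acaca and Fasn interleave between the groups.

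The regulators Thrsp and Srebf1 are taken first. Thrsp (chromosome 7, 97412938 to 97417730, minus strand, mm10) had 436 and 397 CPM in EP300 KO and 62.9 and 66.2 CPM in EP300 WT. Both KO libraries lay far above both WT libraries. It rose 6.46-fold (log2 fold change 2.69, SE 0.07, 95% interval 2.55 to 2.83, edgeR adjusted p = 6.74e-14), which placed it 106th from the top among all genes tested. Across 14 alternatives its log2 fold change ran from 2.63 to 2.76 and its call held in all 14. Srebf1 (chromosome 11, 60199089 to 60222581, minus strand), the SREBP-1 gene, had 258 and 255 CPM in KO and 270 and 257 CPM in WT. The KO range ran into the WT range, and the log2 fold change was -0.04 (SE 0.06, 95% interval -0.16 to 0.08, edgeR adjusted p = 0.657). That interval leaves room for a fold of 0.896 to 1.06 at the level of the gene. A gene-level count sums the transcripts that encode SREBP-1a and SREBP-1c, and says nothing of cleavage of the protein, which sets its activity.

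Within each library the ratio of Thrsp to Srebf1, per kb of merged exons, was 4.35 and 4.01 in EP300 KO and 0.6 and 0.663 in EP300 WT. Thrsp was thus the more abundant of the pair per exon length in both KO libraries and the less abundant in both WT libraries. With 2 libraries a group, an exact two-sided permutation test of such a ratio cannot go below p = 0.333. This ratio, like those given further on, reached that value because its groups did not overlap. This pair and the others drawn below were chosen after their values were seen. Their separation therefore adds nothing to the changes of the single genes.

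Among the enzymes, the one that supplies acetyl-CoA rose. Acly (chromosome 11, 100476353 to 100528000, minus strand) had 352 and 326 CPM in KO and 246 and 243 CPM in WT. The groups did not overlap, and the log2 fold change was 0.47 (SE 0.06, edgeR adjusted p = 1.09e-05), a 1.39-fold rise. The citrate carrier Slc25a1, which exports the substrate of Acly from mitochondria, rose by 0.34 (SE 0.06, edgeR adjusted p = 0.000326), and the cytosolic acetyl-CoA synthetase Acss2 by 0.58 (SE 0.06, edgeR adjusted p = 2.42e-06).

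The acetyl-CoA carboxylases parted. Acacb (chromosome 5, 114146535 to 114250761, plus strand), whose product sits at the outer mitochondrial membrane and makes the malonyl-CoA that restrains fatty acid import, had 92.4 and 76.1 CPM in KO and 56.8 and 54.2 CPM in WT. Both KO values were above both WT values but differed from each other more than the WT values did. Its log2 fold change was 0.60 (SE 0.08, 95% interval 0.42 to 0.78, edgeR adjusted p = 3.97e-05), and it was 0.47 without KO replicate 1 and 0.74 without KO replicate 2. Acaca (chromosome 11, 84129672 to 84401651, plus strand), the cytosolic enzyme that feeds Fasn, had 104 and 101 CPM in KO and 106 and 103 CPM in WT. These ranges overlap, with a log2 fold change of -0.03 (SE 0.06, 95% interval -0.16 to 0.11, edgeR adjusted p = 0.781). The 2 intervals do not meet. The ratio of Acacb to Acaca per kb of merged exons was 1.58 and 1.34 in KO and 0.952 and 0.937 in WT. The merged exons of Acaca span 17074 bases over many annotated transcripts, so its level per kb is lower than it would be against a single transcript.

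Fasn (chromosome 11, 120805846 to 120824547, minus strand), which carries out the synthesis itself, had 563 and 518 CPM in KO and 532 and 507 CPM in WT. The libraries of the groups interleave. Its log2 fold change was 0.06 (SE 0.06, 95% interval -0.06 to 0.18, edgeR adjusted p = 0.483). It passed only without KO replicate 2, at 0.12 (adjusted p = 0.0261; 0.0261 to 1 over 14 alternatives), and its sign turned with library size scaling (-0.01).

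Me1 (chromosome 9, 86581371 to 86695953, minus strand), which makes NADPH while converting malate to pyruvate, had 116 and 100 CPM in KO and 47.9 and 48.3 CPM in WT. Both KO libraries stood well above both WT libraries, a 2.25-fold rise. The log2 fold change was 1.17 (SE 0.08, edgeR adjusted p = 6.16e-09), the largest among the 7 enzymes, and the call held in all 14 alternatives. The ratio of Me1 to Fasn per kb was 0.585 and 0.551 in KO and 0.256 and 0.271 in WT.

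Elovl6 and Scd1, which modify the finished palmitate, moved in opposite directions. Elovl6 (chromosome 3, 129532355 to 129638495, plus strand) had 110 and 94.6 CPM in KO and 72.6 and 73.6 CPM in WT. The groups did not overlap, and the rise was 0.49 on the log2 scale (SE 0.07, edgeR adjusted p = 9.52e-05). Scd1 (chromosome 19, 44394455 to 44407879, minus strand) had 4934 and 4677 CPM in KO and 5323 and 5398 CPM in WT. Both KO libraries were below both WT libraries, by a small margin: the log2 fold change was -0.16 (SE 0.05, edgeR adjusted p = 0.013). The Scd1 call ended with DESeq2 (adjusted p = 0.0541), without a filter (0.0631), without WT replicate 1 (0.187), without WT replicate 2 (0.284) and against a fold of 1.5, within a range of adjusted p from 7.73e-14 to 1 over 13 alternatives.

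**Figure D2:**
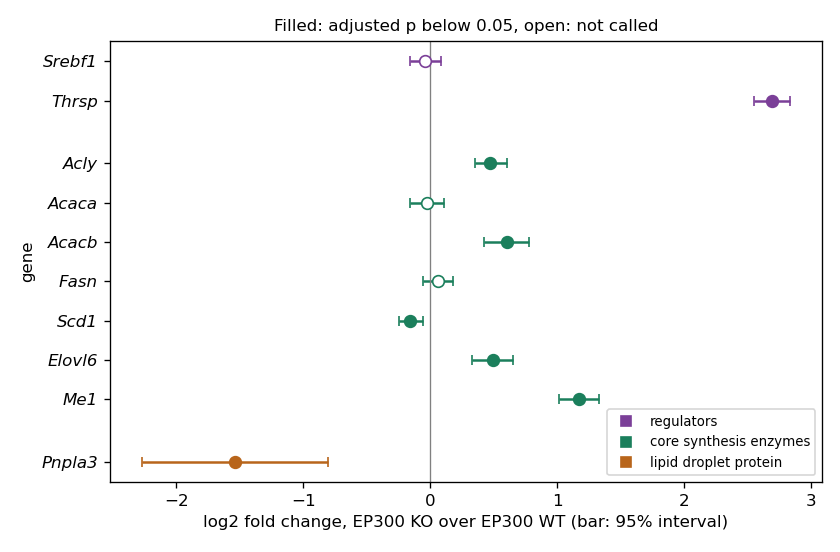
Log2 fold change of EP300 KO over EP300 WT for each gene, ordered by role (colour), with 95% intervals from the edgeR fit as bars; filled points had an adjusted p below 0.05. Thrsp at 2.69 and Pnpla3 at -1.54 mark the ends, and the 7 enzymes lie between -0.16 (Scd1) and 1.17 (Me1).

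Pnpla3 (chromosome 15, 84167837 to 84187236, plus strand) was scarce, with 11 and 21 counts in KO and 57 and 46 counts in WT. In CPM this is 0.636 and 1.21 in KO and 3 and 2.39 in WT, so that both KO libraries were below both WT libraries. It fell to 0.344 of the WT level, a log2 fold change of -1.54 (SE 0.34, 95% interval -2.27 to -0.81, edgeR adjusted p = 0.00249). Its interval is the widest of the 10 genes. Its call was lost with no filter (adjusted p = 0.0608) and when WT replicate 1 was left out (0.073), within a range from 4.28e-05 to 0.073 over 13 alternatives, and a gene on the same strand covers 6.78% of its exons. The interval of Pnpla3 does not meet that of Srebf1. Pnpla5, a related gene of the same family, was lower still in counts, with 4 and 6 in KO and 24 and 35 in WT, and fell by 2.39 on the log2 scale (SE 0.47, edgeR adjusted p = 0.000934). The Pnpla5 call was lost when WT replicate 2 was left out (adjusted p = 0.0544; 2e-05 to 0.0544 over 13 alternatives).

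Per kb of merged exons, the scale on which genes can be compared, the order of the 7 enzymes in EP300 KO was Scd1 (a mean of 982 CPM per kb), Acly (64.2), Fasn (49.4), Me1 (28.1), Elovl6 (15.9), Acacb (8.75) and Acaca (5.99). In EP300 WT it was Scd1 (1096), Fasn (47.4), Acly (46.2), Me1 (12.5), Elovl6 (11.4), Acaca (6.1) and Acacb (5.76). The neighbours Fasn and Acly, and Acaca and Acacb, exchanged places between the groups, and in WT the members of each such pair lay close together. Both exchanges rest on the exon lengths used. The ratio of Acacb to Acaca by counts was 0.893 and 0.754 in KO and 0.537 and 0.529 in WT, so that Acaca had more counts in all 4 libraries. By counts the ratio of Acly to Fasn was 0.626 and 0.629 in KO and 0.462 and 0.479 in WT. Fasn thus also had more counts than Acly in all 4 libraries. Scd1 made up 84.8% and 85.4% of the summed level per kb of the 7 enzymes in KO and 89.3% and 89.6% in WT. Leaving Scd1 out, the sum of the other 6 was 181 and 164 CPM per kb in KO and 131 and 128 in WT. Within those 6, the share of Fasn was 28.4% and 28.9% in KO and 37.1% and 36.2% in WT, and the share of Me1 was 16.6% and 15.9% in KO and 9.5% and 9.81% in WT.

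**Figure D3:**
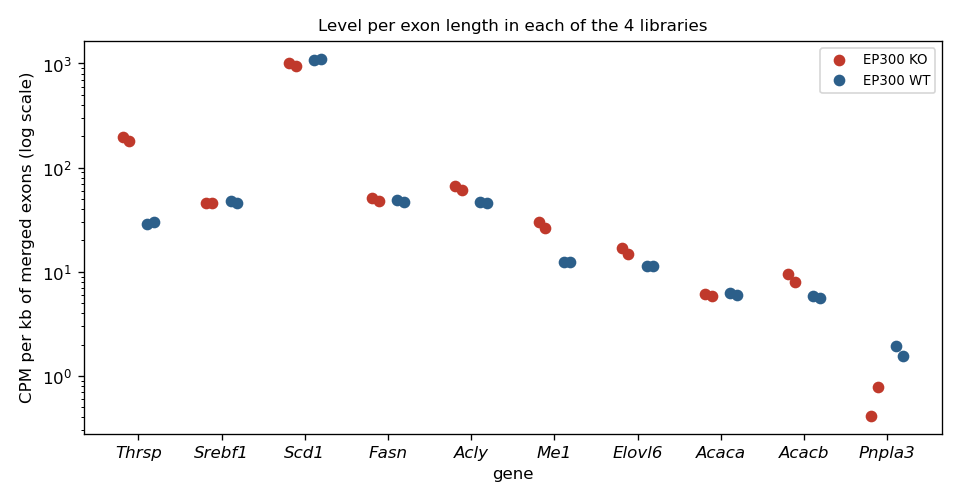
Level per exon length (CPM per kb of merged exons, log axis) of the 10 genes in the 2 EP300 KO (red, left) and 2 EP300 WT (blue, right) libraries. Scd1 stands highest at about 1000 in both groups, Pnpla3 lowest at a mean of 0.595 in KO and 1.74 in WT, and Thrsp is at 190 in KO and 29.5 in WT.

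Genes that control the pathway were examined as a list of 22, of which 5 were higher and 5 lower (median log2 fold change 0.07). Beside this list and those that follow stand the shares of all genes tested, 16.7% higher and 17.5% lower. Among genes with a mean of at least 10 CPM these shares were 23.0% and 19.6%. Mlxipl, which encodes the glucose-responsive factor ChREBP, rose by 0.46 (SE 0.06, edgeR adjusted p = 1.06e-05), with 345 and 327 CPM in KO and 246 and 243 CPM in WT. Ppargc1b, a coactivator of SREBP-1, rose by 1.40 (SE 0.16, edgeR adjusted p = 6.47e-06). The liver X receptor gene Nr1h3, known to switch on Srebf1, had a log2 fold change of 0.02 (edgeR adjusted p = 0.8), or -0.04 with library size scaling. Of the genes that hold or move SREBP in the endoplasmic reticulum, Insig2 fell by 0.71 (SE 0.06, edgeR adjusted p = 3.87e-07), while Insig1 had a log2 fold change of 0.12 (edgeR adjusted p = 0.222). Insig1 was at -0.00 without KO replicate 1 and at 0.25 without KO replicate 2, where it passed (adjusted p = 6.6e-06; 6.6e-06 to 1 over 14 alternatives). Scap rose by 0.20 (edgeR adjusted p = 0.0267), a call that ended in 6 of 14 alternatives, and 13.2% of its exon bases are shared with an antisense gene. The insulin signalling genes Insr and Irs2 fell by 0.45 and 0.46 (edgeR adjusted p = 2.51e-05 and 0.000139). Of the others of that pathway in the list, named after their values were seen, Irs1 had a log2 fold change of -0.26 (edgeR adjusted p = 0.111) and the kinase gene Akt2 rose by 0.22 (edgeR adjusted p = 0.013), a call that ended without WT replicate 1 (0.114), without WT replicate 2 (0.151) and in 2 further alternatives. The count of genes called higher in this list was 9 without KO replicate 2, 3 without a filter, and 2 with library size scaling, without WT replicate 1 or without WT replicate 2.

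Mid1ip1, the paralogue of Thrsp whose protein binds acetyl-CoA carboxylase, went the other way from Thrsp. It had 30.6 and 27.6 CPM in KO and 39.9 and 39.2 CPM in WT and fell by 0.44 (SE 0.08, edgeR adjusted p = 0.000639). Per kb, Thrsp stood at 13.9 and 14 times the level of Mid1ip1 in KO and at 1.53 and 1.64 times in WT. An antisense gene shares 25.5% of the exon bases of Mid1ip1, and their reads cannot be told apart if the counting ignored strand.

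Of 16 genes of carbon supply and NADPH, 7 were higher and 8 lower (median log2 fold change -0.15). Liver pyruvate kinase (Pklr), which closes glycolysis in the hepatocyte, fell by 0.34 (edgeR adjusted p = 0.000639), although an antisense gene covers 22% of its exons. Pklr did not pass without WT replicate 2 (adjusted p = 0.0584; 4.03e-11 to 1 over 14 alternatives). Pdk4, which shuts pyruvate out of acetyl-CoA synthesis, fell by 1.5 (SE 0.08, edgeR adjusted p = 9.38e-10), to 26.9 and 32 CPM in KO, against 84.2 and 82.7 CPM in WT. Mpc1, a subunit of the mitochondrial pyruvate carrier, fell by 0.42 (edgeR adjusted p = 0.00238), a call that ended without WT replicate 1 (adjusted p = 0.0512) or WT replicate 2 (0.0712), and an antisense gene covers 23.1% of its exons. Mdh1, the cytosolic malate dehydrogenase that makes malate for Me1, rose by 0.70 (SE 0.06, edgeR adjusted p = 9.1e-08), and Idh1, another source of cytosolic NADPH, rose by 0.40 (SE 0.06, edgeR adjusted p = 5.02e-05). The pentose phosphate genes G6pdx, Pgd and Tkt, named after their values were seen, had log2 fold changes of -0.38, -0.30 and -0.20 (edgeR adjusted p = 0.0426, 0.00637 and 0.0299). The fourth such gene of the list, Taldo1, had a log2 fold change of -0.10 (edgeR adjusted p = 0.227). The calls of G6pdx, Pgd and Tkt each ended without either WT replicate and without a filter, and G6pdx moved to -0.20 without KO replicate 2 and Tkt to -0.10 without KO replicate 1. The number called lower in this list was 2 without WT replicate 1, 1 without WT replicate 2 and 4 without a filter.

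Of 20 further elongases, desaturases and fatty acid activating enzymes, 18 were tested, 6 were higher and 7 lower (median log2 fold change -0.01). Scd2, the desaturase isoform that adult liver holds at low level and other tissues use, had 27.5 and 32.2 CPM in KO and 162 and 162 CPM in WT. Both KO libraries lay far below both WT libraries, and the log2 fold change was -2.44 (SE 0.08, edgeR adjusted p = 9.75e-13). The ratio of Scd1 to Scd2 per kb was 200 and 162 in KO and 36.6 and 37.2 in WT. Elovl5, which elongates polyunsaturated chains, fell by 0.58 (SE 0.06, edgeR adjusted p = 1.76e-06), and the ratio of Elovl6 to Elovl5 per kb was 0.354 and 0.331 in KO and 0.161 and 0.165 in WT. Elovl7 fell by 1.37 (SE 0.13, edgeR adjusted p = 5.68e-07). Elovl3, an elongase of very long chains and one of the 8 male-biased genes above, had 250 and 201 counts in KO and 0 and 1 in WT, a ratio of 497 (95% counting interval 88.8 to 19683). Acsl1, which activates fatty acids to their CoA esters, rose by 0.83 (SE 0.06, edgeR adjusted p = 1.66e-08), and Acot11, a thioesterase for which 20.9% of the exon sequence is also in an antisense gene, rose by 1.37 (SE 0.21, edgeR adjusted p = 0.000117). The polyunsaturated fatty acid desaturases Fads1 and Fads2 had log2 fold changes of -0.16 (edgeR adjusted p = 0.0306) and -0.13 (edgeR adjusted p = 0.0577). Fads1 lost its call in 5 of 14 alternatives, and Fads2 gained one in 6. The number called lower in this list was 4 without WT replicate 1, 3 without WT replicate 2 and 4 without a filter.

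**Figure D4:**
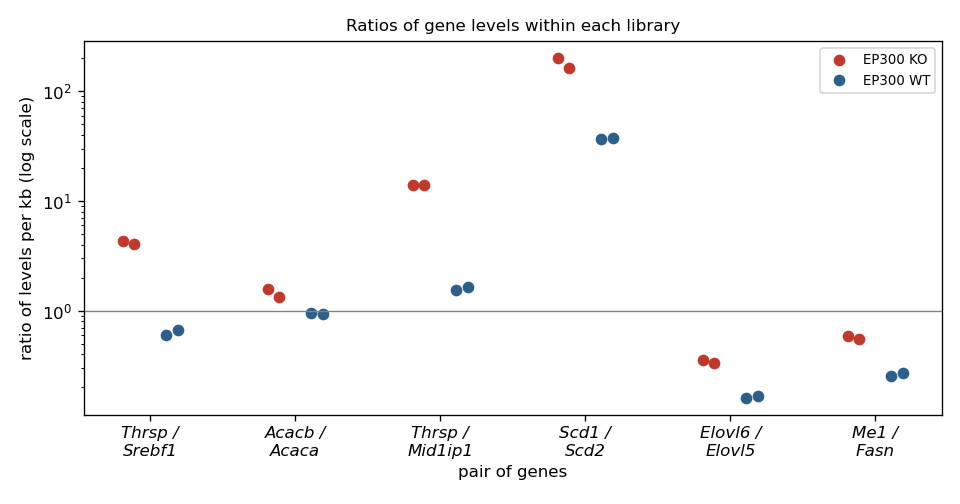
Ratios of levels per kb of merged exons (log axis) between pairs of genes inside each EP300 KO (red, left) and EP300 WT (blue, right) library; the line marks a ratio of 1, and the pairs were chosen after their values were seen. Every pair drawn has both KO ratios above both WT ratios, from Acacb over Acaca (1.58 and 1.34 in KO, 0.952 and 0.937 in WT) to Thrsp over Mid1ip1 (13.9 and 14 in KO, 1.53 and 1.64 in WT).

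Of 13 genes of triglyceride assembly, 12 were tested, 7 were higher and 2 lower (median log2 fold change 0.17). The phosphatidate phosphatases Lpin1 and Lpin2 rose by 0.67 (SE 0.06, edgeR adjusted p = 4.33e-07) and 0.47 (SE 0.06, edgeR adjusted p = 5.91e-06). Gpam, the mitochondrial acyltransferase of the first step, fell by 0.50 (SE 0.06, edgeR adjusted p = 1.19e-05). Tm6sf2, which aids lipid loading of secreted lipoproteins, fell by 0.68 (SE 0.08, edgeR adjusted p = 7.65e-06). Of the enzymes of the last step, Dgat1 rose by 0.46 (edgeR adjusted p = 0.000534) and Dgat2 by 0.16 (edgeR adjusted p = 0.0315), a call that Dgat2 lost in 7 of 14 alternatives. The number called higher was 4 in place of 7 with DESeq2, with library size or upper quartile scaling, without a filter, and without either WT replicate.

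Of 18 genes of lipid droplets and lipolysis, 17 were tested, 8 were higher and 5 lower (median log2 fold change 0.18). G0s2, an inhibitor of adipose triglyceride lipase, had 139 and 126 CPM in KO and 32.7 and 35.2 CPM in WT, a difference of 1.97 on the log2 scale (SE 0.07, edgeR adjusted p = 1.05e-11). The lipase itself, Pnpla2, rose by 0.49 (SE 0.06, edgeR adjusted p = 1.63e-05). Its activator Abhd5, named after its values were seen and with 16% of its exon sequence also in an antisense gene, fell by 1.20 (SE 0.09, edgeR adjusted p = 3.24e-08). Hilpda, a hypoxia-induced inhibitor of the same lipase, fell by 2.33 (SE 0.14, edgeR adjusted p = 1.68e-09), to 4.45 and 6.26 CPM in KO, against 26.7 and 27.4 CPM in WT. Mgll, which splits monoglycerides, rose by 1.41 (SE 0.08, edgeR adjusted p = 1.45e-09). Fitm1, a protein of droplet formation for which an antisense gene covers 11.2% of the exons, rose by 1.40 (SE 0.18, edgeR adjusted p = 1.34e-05), and the droplet coat gene Plin2 fell by 0.34 (SE 0.06, edgeR adjusted p = 0.000275). The other coat genes of the list, named after their values were seen, split in direction: Plin3 fell by 0.57 (edgeR adjusted p = 6.68e-06) and Plin5 rose by 0.64 (edgeR adjusted p = 2.71e-06). Plin4 also rose, with 41.4 and 49 CPM in KO and 20.1 and 17.9 CPM in WT (edgeR adjusted p = 7.47e-08). Pnpla3 therefore fell beside Pnpla5 while Pnpla2, of the same family, rose.

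**Figure D5:**
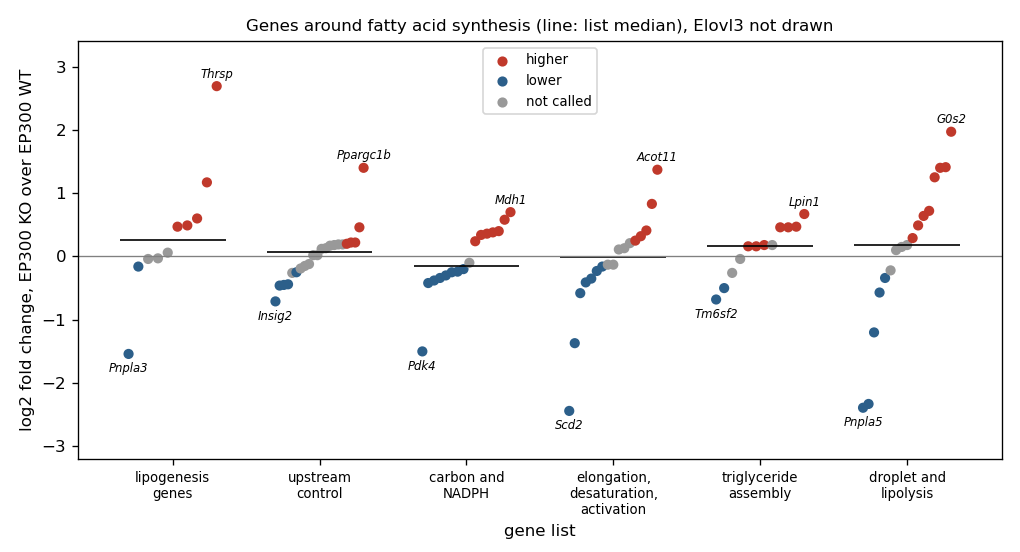
Log2 fold change of EP300 KO over EP300 WT for the 10 lipogenesis genes and 5 lists around them, each point a gene, coloured by its call, with a line at the list's median; Elovl3 is not drawn because it had 1 count in the WT libraries. Each list has calls on both sides of 0, with Thrsp at 2.69 and G0s2 at 1.97 near the top and Scd2 at -2.44 and Pnpla5 at -2.39 near the bottom.

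Markers of cell types moved with the labels too, and in bulk libraries fewer cells of a type and less RNA per cell cannot be told apart. Per the labels the livers were perfused and the cells sorted by flow cytometry, and the gate is not stated. RNA of markers of other cell types was still counted in all 4 libraries. The endothelial marker Stab2, for example, had 76.2 and 67.8 CPM in KO and 75.3 and 79.3 CPM in WT. The 13 hepatocyte markers were all tested, 5 higher and 5 lower, and summed to 140837 and 147604 CPM in KO and 166839 and 165428 CPM in WT. The labelled cell type was therefore present at high level in all 4 libraries. Of 8 endothelial markers 0 were higher and 5 lower, at a summed 250 and 221 CPM in KO and 300 and 292 CPM in WT. Vwf gave 11 and 9.13 CPM of these sums in KO and 23.5 and 23.8 CPM in WT. Kdr, Stab2 and Clec4g did not pass (log2 fold changes -0.00, -0.10 and -0.08). Of 8 stellate and fibroblast markers 0 were higher and 5 lower, at 186 and 179 CPM in KO and 291 and 283 CPM in WT. Reln gave 30.9 and 32.8 CPM of these sums in KO and 119 and 113 CPM in WT, while Dcn did not pass (log2 fold change -0.01). Of 8 biliary markers, 7 of them tested, 0 were higher and 4 lower, at 219 and 237 CPM in KO and 380 and 373 CPM in WT. Cdh1 gave 79.5 and 91.5 CPM of these sums in KO and 165 and 155 CPM in WT. The biliary markers Krt19 and Epcam, with 9 to 33 counts in a library, did not pass (log2 fold changes 0.08 and -0.01). Of 8 macrophage markers 4 were higher and 1 lower, at 876 and 804 CPM in KO and 667 and 669 CPM in WT. Gpnmb gave 408 and 330 CPM of these sums in KO and 144 and 145 CPM in WT. The 1 lower, Cd5l, had 152 and 162 CPM in KO and 252 and 256 CPM in WT, and Adgre1, Clec4f and Csf1r did not pass. The 8 lymphocyte and erythroid markers, 5 of them tested, summed to 75.3 and 69 CPM in KO and 36.6 and 35 CPM in WT. Of these, 2 were higher (Alas2 and Klf1) and 1 lower (Ptprc), and the globin genes Hbb-bs and Hba-a1 did not pass. Alas2 gave 45.7 and 45 CPM of the sums in KO and 6.31 and 6.23 CPM in WT. Cd3e and Cd79a had at most 3 counts in a library. Among markers of adipocytes, which use the same synthesis genes, Adipoq, Lep and Retn had 0 counts in all 4 libraries, and Cfd had 1 count over the 4 together. Of the 10 adipocyte markers 5 were tested, with 1 higher and 1 lower. Fabp4, a fatty acid binding protein gene, had 12.1 and 12.7 CPM in KO and 17.8 and 16.3 CPM in WT and was called lower (edgeR adjusted p = 0.00453), a call that ended without WT replicate 1 (0.101). Pparg, Adrb3 and Aqp7 were present in every library, at 1.44 to 13.4 CPM, and did not pass. The 10 still summed to 615 and 527 CPM in KO and 55.3 and 52.8 CPM in WT, of which Car3, also a hepatocyte gene, gave 583 and 494 CPM in KO and 14.4 and 13.6 CPM in WT. The part of these other cell types in the results was not tested.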

How the data were processed

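RNA from sorted mouse liver hepatocytes was sequenced, and the authors deposited a table of raw read counts, whole numbers per gene, for both EP300 groups. Per the labels' protocols the kit was TruSeq RNA. Per the submitters' processing notes, DESeq2, HTSeq, STAR and mm10 were used, without their roles, and the annotation and strand setting are not given in the sources used here. Of 55385 identifiers, 55144 matched a GENCODE M21 symbol. Another 4 columns, whose names match none of the samples, were left unused, and the 6 libraries of the series' diet experiment were not analysed here.

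Counts were tested with edgeR 4.0.16 in R 4.3.3 (quasi-likelihood F test on group, with TMM scaling, 2 residual degrees of freedom and genes kept by filterByExpr at a minimum count of 10), with Benjamini-Hochberg adjustment over all 14200 genes tested and a threshold of 0.05. Each standard error was obtained by dividing the size of the log2 fold change by the root of its F statistic. CPM use TMM-adjusted library sizes, and CPM per kb divides them by the merged exon length. Alternatives used DESeq2 1.42.0, limma-voom (limma 3.58.1), other scalings and filters, a test against a fold of 1.5, a block on replicate number, and fits that each omit a library. The test was tried on simulated counts.

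The genes and lists were chosen with earlier results of these data known. Besides the 10 genes, up to 5 called genes with the largest changes of each pathway list and 18 fixed ones were chosen, and 11 more after their values were seen; results of some genes on these lists are not reported here. Replicates within a label differed by more than sampling noise (chi-square per degree of freedom 5.5 in KO and 2.6 in WT).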

Additional observations from a re-analysis of the deposited data

How the results depend on the processing

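Of the 138 values of the 10 genes under 14 alternatives, 124 kept their direction and their side of the threshold, 10 lost the call, 1 gained it and 3 changed sign. The sign changes were in genes without a call: Srebf1 at 0.00 without WT replicate 1 (-0.06 to 0.00 with a library left out), Acaca at 0.00 without WT replicate 1 (-0.04 to 0.00), and Fasn at -0.01 with library size scaling. The number of the 10 called higher was 2 against a fold of 1.5, where 6.98% of all genes were called, and 5 or 6 with a library left out. The number called lower was 1 with DESeq2, 0 without a filter, 1 with a minimum count of 50 (Pnpla3 is then not tested), 1 with the 20 most abundant genes left out (Scd1 is among them), 1 against a fold of 1.5, and 0 to 2 with a library left out (0 without WT replicate 1 and 1 without WT replicate 2). Over all genes, the 4851 calls became 2703 without a filter, 991 against a fold of 1.5, and 2311 to 5154 with a library left out, with 2602 without WT replicate 1. In a fit that leaves out a library, its group keeps 1 library, so the spread within groups can come only from the pair of the other group. The causes were not tested, except where fewer genes or libraries enter by construction. Among the 50 other genes followed, 618 of 699 values kept direction and side, 70 lost the call, 9 gained it, and Nr1h3 (-0.04 with library size scaling) and Insig1 (-0.00 without KO replicate 1, -0.00 to 0.25 with a library left out) changed sign. The median log2 fold change of all genes was -0.07 with library size alone. The replicate numbers gave no sign of pairing (the correlation of the libraries' deviations between groups was 0.0061). With the replicate block 5190 genes were called, of the 10 genes 5 higher and 2 lower. Depth limits Pnpla3 and Pnpla5, which had under 60 counts in every library, and Elovl3, which had 0 and 1 counts in WT.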

Other observations

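Within EP300 KO, 9 of the 10 genes were higher in replicate 1 than in replicate 2, all but Pnpla3, whereas 50.9% of the 14200 genes tested were. Within EP300 WT, 6 of the 10 were higher in replicate 1, and 51.5% of all genes tested. Xist stood at 134 CPM in KO replicate 1 and 81 CPM in KO replicate 2. These values were noticed after the data were seen and were not tested.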
